A study of Mus musculus with 7 samples.

Results

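The genes described here are those of MHC class II antigen presentation, together with Cd207 and Flt3 as genes of Langerhans and other dendritic cells, in mouse skin papillomas. They were taken by symbol from a list of 10 names, of which 9 have a value in every papilloma, out of 23284 gene symbols. The name without a value, given as Itgax-like none, is not the symbol of a gene. 7 members belong to class II presentation: the structural chains H2-Aa, H2-Ab1 and H2-Eb1, the loading factors H2-DMa, H2-DMb1 and Cd74, and the regulator Ciita. All 9 are annotated as protein-coding.

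PolyA+ RNA was sequenced from papillomas of 4 control mice (CTR) and 3 transgenic mice (TG), with 1 library for each mouse. All mice were C57BL/6 littermates between 8 and 10 weeks old at the start, and they received the carcinogen DMBA followed by the tumor promoter TPA for 15 weeks in a protocol of 30 weeks, with papillomas taken at its end or at a humane endpoint. Both groups carried tetO-Nanog, a doxycycline-inducible Nanog cDNA placed downstream of Col1a1, and both drank doxycycline at 2 mg/ml throughout. Only TG mice carried K5-rtTA, in which the bovine keratin 5 promoter expresses the transactivator in basal keratinocytes, so the transgene itself was aimed at epithelial cells and not at the cells that usually express class II. Values are FPKM, fragment numbers scaled to transcript length and library depth, which allow levels to be compared between genes of different length. Nanog was between 2.70 and 12.7 FPKM in CTR and between 36.9 and 66.9 FPKM in TG papillomas, so the labels matched the targeted gene in all 7 libraries.

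MHC class II molecules show peptides from endocytosed proteins to CD4+ T cells. The alpha and beta chains pair in the endoplasmic reticulum with the invariant chain, encoded by Cd74, and the H2-DM heterodimer later exchanges the remaining piece of that chain for a peptide. Ciita is the transactivator that sets when the whole group is transcribed, acting through a shared promoter module of W/S, X and Y boxes, and interferon gamma induces it in many cell types. In skin the steady class II expressors are Langerhans cells, which carry the lectin langerin (Cd207), and dermal dendritic cells and macrophages. Flt3 is the receptor that maintains most conventional dendritic cells.

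The promoter sequences below show the shared module next to the genes whose levels follow. RefSeq windows on GRCm38.p6 ran from 250 bases before to 50 bases after each gene start. In those of the named genes, GNAAC was sought on the strand of the gene, followed 15 to 35 bases later by TGATTGG. The capitals mark these 2 stretches, which belong to the X box and to the Y box with its reversed CCAAT. H2-Eb2 is shown as a neighbor that carries the module at almost no expression.
H2-Aa: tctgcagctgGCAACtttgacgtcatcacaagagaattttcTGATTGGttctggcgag
H2-Eb1: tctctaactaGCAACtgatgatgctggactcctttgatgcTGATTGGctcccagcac
H2-DMb1: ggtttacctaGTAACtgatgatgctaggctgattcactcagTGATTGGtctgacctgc
H2-Eb2: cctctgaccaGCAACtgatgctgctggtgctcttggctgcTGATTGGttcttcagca
The H2-Aa stretch lies at chr17:34287857-34287914 on the minus strand, that of H2-Eb1 at chr17:34305766-34305822, that of H2-DMb1 at chr17:34153087-34153144 and that of H2-Eb2 at chr17:34325533-34325589, the last 3 on the plus strand. The spacing between the stretches was 25 or 26 bases in these 4 promoters. The arrangement was spelled after these windows had been read, so its presence in them is a description. Over all windows, searched on both strands and so more widely, it occurred in 187 of 32851 (0.569%). GNAAC alone occurred in 84.8% and TGATTGG alone in 7.82%. H2-Oa and H2-Ob also held this arrangement, and the windows of H2-DMa, H2-DMb2, Cd207 and Flt3 did not. No window was searched for the members H2-Ab1, Cd74 and Ciita, so their promoters are not described. The 2 H2-DMa windows do not lie at the start that the files list for that gene.

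The libraries were of unequal kind, which bears on each comparison that follows. The intervals that Cufflinks gives with each value imply between 10077008 and 10672850 reads on genes in 5 papillomas, 15623173 in CTR 3 and 15711400 in TG 1. TG 3 stood apart: its median FPKM was 1.14 against 0.539 to 0.673 in the other papillomas, its 6 summed skeletal muscle markers reached 534.2 FPKM against 1.43 to 4.33 FPKM elsewhere, and its 6 summed fibroblast and endothelial markers reached 425.8 FPKM against 51.2 to 80.2 FPKM. Krt10, a keratin of differentiating epidermis, was at 181.3 FPKM in TG 3 and between 916.6 and 3150 FPKM in the others. Members and lists are therefore given with and without TG 3, as are single genes whose printed log2 difference moved by over 1.5 times. Nothing in the labels says that these papillomas differ in how they were dissected.

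**Figure D1:**
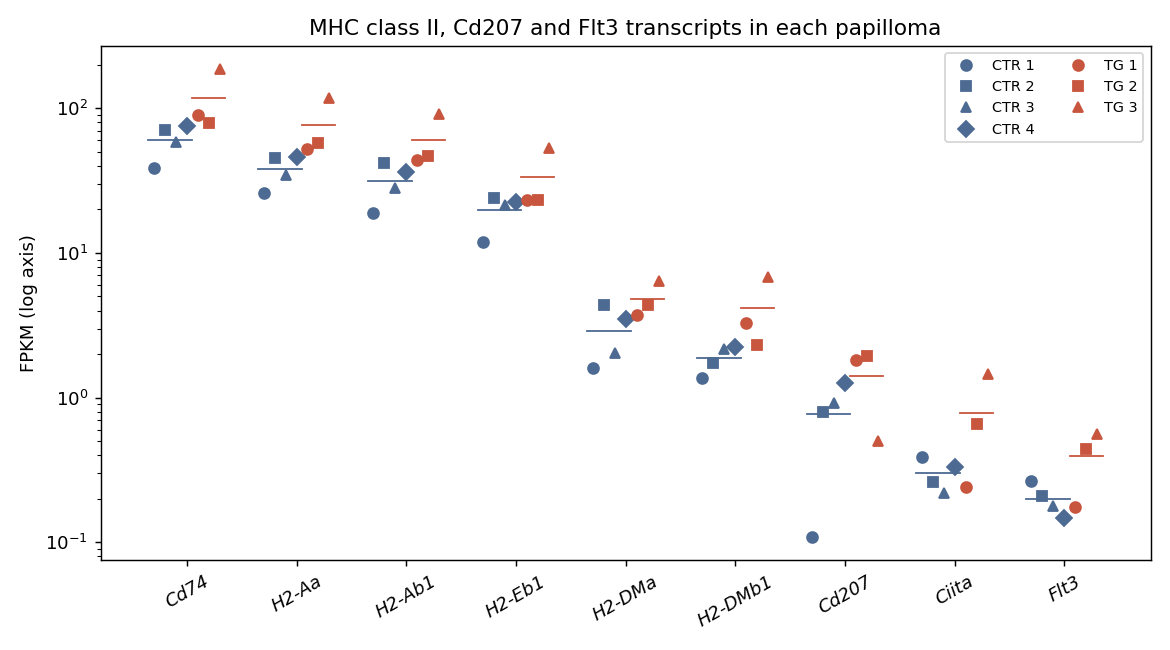
FPKM of the 9 members in each papilloma, on a log axis, with the genes side by side and points for the 4 CTR and 3 TG papillomas. Class II genes are highest in TG 3, where H2-Aa reaches 118 FPKM, while Cd207 is highest in TG 2 at 1.93 FPKM.

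Class II structural and invariant chain genes had higher mean levels in TG than in CTR papillomas, by 0.65 to 0.93 on the log2 scale, and none of these differences passed the test across all genes. H2-Aa, the alpha chain of I-A (chr17:34282751-34287771), was at 25.9, 45.4, 34.3 and 45.8 FPKM in CTR 1 to CTR 4 and at 52.5, 57.4 and 118 FPKM in TG 1 to TG 3. The groups did not overlap, although TG 1 and TG 2 lay closer to the highest CTR papillomas than to TG 3. The means were 37.9 ± 9.59 FPKM (SD, n = 4) and 76.0 ± 36.6 FPKM (SD, n = 3). The difference of log2(FPKM + 0.5), a scale that understates changes of genes at low levels, was 0.93 (SE 0.32), with an adjusted p of 0.687 from limma with Benjamini-Hochberg adjustment over 12299 tested genes. The 2-sided exact permutation test of this gene alone gave p = 0.0286, the smallest value that 4 against 3 papillomas allow. In bulk RNA, more cells of a type and more RNA per cell cannot be told apart.

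H2-Ab1, the beta chain that pairs with H2-Aa (chr17:34263227-34269418), was at 18.9, 41.7, 28.2 and 36.5 FPKM in CTR and at 43.5, 47.1 and 90.9 FPKM in TG papillomas. The order of the papillomas was close to that of H2-Aa, with CTR 1 lowest and TG 3 highest. The log2 difference was 0.92 (SE 0.33), with a limma adjusted p of 0.687 and an exact permutation p of 0.0571.

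H2-Eb1, the beta chain of I-E (chr17:34305867-34316674), was at 12.0, 23.9, 21.6 and 22.4 FPKM in CTR and at 23.4, 23.02 and 53.3 FPKM in TG papillomas. Here TG 1 and TG 2 lay a little below CTR 2, and TG 3 alone was outside the CTR range. The log2 difference was 0.65 (SE 0.34; limma adjusted p = 0.813; exact permutation p = 0.114), and it was 0.26 without TG 3. The C57BL/6 strain makes no I-E alpha chain, and the row for the alpha chain pseudogene, H2-Ea-ps, was listed at 0 in 6 papillomas and at 0.0728 FPKM in CTR 2.

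Cd74, the invariant chain (chr18:60803849-60812652), was the most abundant member. It was at 38.7, 70.9, 58.1 and 74.8 FPKM in CTR and at 89.8, 78.4 and 186 FPKM in TG papillomas, so that TG 2 exceeded CTR 4 by little. The means were 60.6 ± 16.3 FPKM (SD, n = 4) and 117.9 ± 58.9 FPKM (SD, n = 3), the log2 difference was 0.89 (SE 0.34), the limma adjusted p was 0.702 and the exact permutation p was 0.0286.

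The loading factors were expressed at a lower level. H2-DMa, the alpha chain of H2-DM (chr17:34135671-34138535), was at 1.59, 4.35, 2.03 and 3.51 FPKM in CTR and at 3.73, 4.33 and 6.43 FPKM in TG papillomas, so the groups overlapped through CTR 2. Its log2 difference was 0.71 (SE 0.32), with a limma adjusted p of 0.748 and an exact permutation p of 0.200. H2-DMb1, one of its beta chains (chr17:34153191-34160229), was at 1.36, 1.73, 2.15 and 2.23 FPKM in CTR and at 3.29, 2.33 and 6.81 FPKM in TG papillomas. The H2-DMb1 groups did not overlap, but TG 2 was only just above CTR 4. Its log2 difference was 0.87 (SE 0.32), with a limma adjusted p of 0.702 and an exact permutation p of 0.0286. H2-DMb2, a near-identical neighbor whose reads the counting may have shared with H2-DMb1, had a log2 difference of 0.83 and overlapping groups (limma adjusted p = 0.705).

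Ciita, the transactivator, was at 0.390, 0.262, 0.220 and 0.332 FPKM in CTR and at 0.240, 0.660 and 1.45 FPKM in TG papillomas. TG 1 lay among the lowest CTR papillomas, and TG 2 and TG 3 lay above all of them. Its mean over the 7 papillomas, 0.507 FPKM, just passed the minimum of 0.5 FPKM for testing, and its log2 difference was 0.57 (SE 0.34; limma adjusted p = 0.826; exact permutation p = 0.143). TG 1 therefore had more H2-Aa than any CTR papilloma while its Ciita level was within the CTR range.

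Cd207, the Langerhans cell lectin, did not follow the class II genes in 1 respect: TG 3, the highest papilloma for all 7 class II members, had only 0.502 FPKM. The other values were 0.110, 0.794, 0.912 and 1.26 FPKM in CTR and 1.81 and 1.93 FPKM in TG 1 and TG 2. TG 1 and TG 2 were thus above all CTR papillomas, and TG 3 was below 3 of the 4. These levels rest on few reads, an implied 3, 22, 35 and 33 in CTR and 69, 51 and 14 in TG papillomas, so single values carry a wide counting error. The log2 difference was 0.59 (SE 0.44; limma adjusted p = 0.852; exact permutation p = 0.314), and it was 1.00 without TG 3.

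Flt3 was the least abundant member, at 0.265, 0.208, 0.180 and 0.147 FPKM in CTR and at 0.176, 0.444 and 0.562 FPKM in TG papillomas, from an implied 8 to 30 reads. TG 2 and TG 3 were above the CTR range and TG 1 was inside it. Its mean of 0.283 FPKM was under the minimum, and in the fit without that minimum its log2 difference was 0.33 (limma adjusted p = 0.901; exact permutation p = 0.143). Without TG 3 the Flt3 difference was 0.19.

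By mean over the 7 papillomas the order of the levels per length was Cd74 (85.2 FPKM), H2-Aa (54.2), H2-Ab1 (43.8), H2-Eb1 (25.6), H2-DMa (3.71), H2-DMb1 (2.84), Cd207 (1.05), Ciita (0.507) and Flt3 (0.283). Cd74, H2-Aa, H2-Ab1 and H2-Eb1 kept this order within every papilloma. The order of H2-DMa and H2-DMb1 did not hold throughout, since their ratio lay between 0.943 and 2.51. Cd74 was above 95.7% of the tested genes, and H2-DMb1 above 30.7%.

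All 9 members had a higher mean log2 level in TG papillomas. By limma, 0 of the 8 tested members had an adjusted p under 0.05, as had 0 of the 12299 genes in either direction (0%). At an unadjusted p under 0.05, 4 members were higher and 0 lower, against 4.86% of all tested genes higher and 1.96% lower. The groups did not overlap, with TG higher, in 4 members (H2-Aa, H2-Ab1, Cd74 and H2-DMb1), against 4.93% of tested genes, and with TG lower in 0 members, against 2.23%. After upper-quartile scaling or quantile normalization 3 members were left, since TG 1 then lay below CTR 2 for H2-Ab1. The class II members share a known regulator, so they do not count as separate observations. The median log2 difference of the 7 class II members was 0.87, against 0.06 over all tested genes. Without TG 3 it was 0.51, against -0.03.

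1 papilloma at each end weighed heavily in these figures. TG 3 was the highest papilloma for 8 of the 9 members, against 41.1% of all tested genes, and CTR 1 was the lowest for 7, against 14.2%. When H2-Aa, H2-Ab1, H2-Eb1 and Cd74 were summed over the TG papillomas, 51.9% of the FPKM came from TG 3. Without TG 3 the log2 differences were 0.57 for H2-Aa, 0.58 for H2-Ab1, 0.51 for Cd74, 0.51 for H2-DMa, 0.48 for H2-DMb1 and 0.22 for Ciita. All of these were positive, and none of the members that could be tested without TG 3 had an adjusted p under 0.05 by limma.

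The class II chains kept nearly constant proportions across papillomas in which their amount differed several fold. H2-Aa varied 4.57-fold between the lowest and highest papilloma, whereas its ratio to H2-Ab1 lay between 1.09 and 1.37. Cd74 per H2-Aa lay between 1.37 and 1.71. The H2-Eb1 to H2-Ab1 ratio was 0.632, 0.572, 0.766 and 0.613 in CTR and 0.537, 0.489 and 0.586 in TG papillomas, with overlapping groups.

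**Figure D2:**
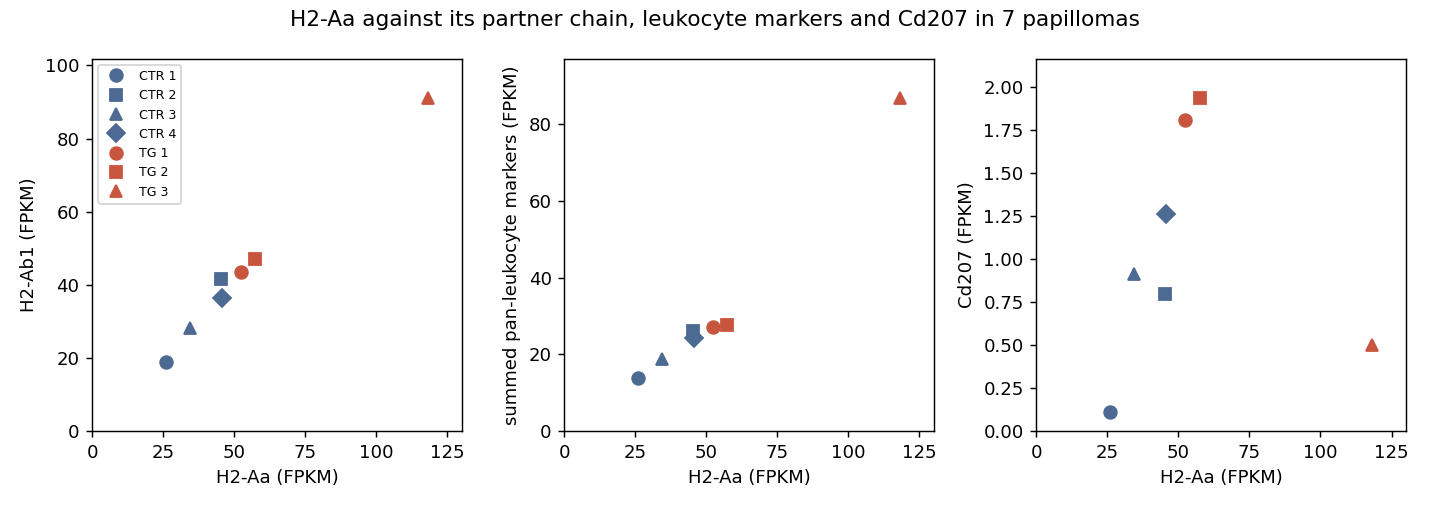
H2-Aa in the 7 papillomas plotted against H2-Ab1, the summed pan-leukocyte markers and Cd207. Axes are linear, in FPKM, with a point for each CTR or TG papilloma. H2-Aa and H2-Ab1 lie close to a line, with ratios between 1.09 and 1.37, and TG 3 leaves the order in the panel with Cd207.

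Across the 7 papillomas, 8 genes were set against the mean centered log2 level of H2-Aa, H2-Ab1, H2-Eb1 and Cd74. H2-DMa gave a Pearson r of 0.923 (exact permutation p = 0.00119, adjusted over the 8 relations 0.00952) and a Spearman rho of 0.893 (exact permutation p = 0.0123, adjusted 0.0952). Without CTR 1 and TG 3, the papillomas farthest from the median, r for H2-DMa was 0.90. H2-DMb1 gave r = 0.928 (exact permutation p = 0.00496, adjusted 0.0198) and rho = 0.857 (exact permutation p = 0.0238, adjusted 0.0952), but its r fell to 0.421 without these 2 papillomas, on which the relation therefore rests. The r was 0.749 for Ciita (exact permutation p = 0.0871; 0.524 without these 2), 0.630 for Flt3 (exact permutation p = 0.143; 0.467 without) and 0.260 for Cd207 (exact permutation p = 0.592). Cd207 had rho = 0.357 (exact permutation p = 0.444) and r = 0.722 without CTR 1 and TG 3. For the leukocyte and myeloid genes, r was 0.788 for Itgax (exact permutation p = 0.0687), 0.738 for Ptprc (exact permutation p = 0.122) and 0.712 for Lyz2 (exact permutation p = 0.0895). Without CTR 1 and TG 3 these were 0.297, 0.365 and -0.175. Adjusted over the 8 relations, the r of Ciita, Itgax and Lyz2 each had p = 0.143 by exact permutation, and rho was at most 0.50 for all genes but H2-DMa and H2-DMb1. These 7 papillomas comprise both groups, and neither group nor depth class holds enough of them for a relation of its own.

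The genes whose pattern over the 7 papillomas was most like that of the class II mean, by Pearson r, were Ptger1 (0.993), Dok3 (0.990), Cd52 (0.986), Adck2 (0.985) and Vim (0.983). Cd52, a surface protein of leukocytes, was at 4.59, 10.2, 8.71 and 10.1 FPKM in CTR and at 14.1, 11.1 and 27.5 FPKM in TG papillomas. Of all tested genes, 1.85% had an r above 0.9 with the class II mean. Those most like Cd207 were Chi3l1 (0.987), Serpina12 (0.987), Mboat2 (0.984), Toe1 (0.983) and Lce6a (0.983), and 0.594% of genes had an r above 0.9 with it. Lce6a belongs to the late cornified envelope genes of differentiated epidermis. It was at 1.88, 6.59, 6.59 and 12.8 FPKM in CTR and at 16.1, 19.1 and 3.06 FPKM in TG papillomas. None of the 5 genes most like Cd207 was among the 5 most like the class II mean.

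Of the 6 pan-leukocyte markers, all were highest in TG 3 and 4 (Coro1a, Laptm5, Cd52 and Cd53) were lowest in CTR 1, while Ptprc was lowest in TG 1 and Rac2 in CTR 3. Their sum ranged from 13.9 to 26.1 FPKM in CTR and were 27.1, 27.6 and 86.7 FPKM in TG papillomas. H2-Aa per summed pan-leukocyte FPKM was 1.86, 1.75, 1.83 and 1.88 in CTR and 1.94, 2.08 and 1.36 in TG papillomas. This ratio varied 1.53-fold, less than H2-Aa itself, and it was lowest in TG 3. A large part of the sum is Cd52, 1 of the 5 genes most like the class II mean. Cd52 made 14.1 of the 27.1 FPKM in TG 1 and 27.5 of the 86.7 FPKM in TG 3. Per Ptprc, the CD45 gene, Cd74 was at 26.4, 69.7, 74.1 and 53.2 in CTR and at 117, 54.1 and 22.7 in TG papillomas, so here TG 3 and CTR 1 were both low. Whether the leukocyte content has a part in the class II differences was not tested.

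Cd207 FPKM as a percent of H2-Aa FPKM was 0.424%, 1.75%, 2.66% and 2.76% in CTR and 3.44%, 3.36% and 0.425% in TG papillomas. CTR 1 and TG 3, at opposite ends for class II, thus had the same low share of Cd207 per H2-Aa, although the CTR 1 value rests on an implied 3 reads of Cd207. Krt1, a keratin of differentiating epidermis, was also low in both, at 187 FPKM in CTR 1 and 132.7 FPKM in TG 3, against 470 to 3309 FPKM in the other papillomas. Krt10, another such keratin, was low only in TG 3, at 181.3 FPKM. In CTR 1 it was at 1440 FPKM, the highest of the CTR papillomas.

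Among 6 structural class II genes listed, 3 were tested, all of them members. H2-Eb2 was at most 0.0696 FPKM in any papilloma, despite the module printed above. Of 14 loading genes, 11 were tested, with a median log2 difference of 0.51, or 0.21 without TG 3. At an unadjusted p under 0.05 by limma, 3 were higher (Cd74, H2-DMb1 and H2-DMb2) and 0 lower, against 4.86% and 1.96% of all tested genes. Cd74 and H2-DMb1 were already counted among the members, and H2-DMb2 may share reads with H2-DMb1. The lysosomal proteases Ctsl, Ctsb, Ctsd and Lgmn had log2 differences of -0.08, 0.31, -0.20 and 0.32, each with overlapping groups, and of -0.18, 0.21, -0.54 and -0.0010 without TG 3. Ctss, the protease that trims the invariant chain in antigen-presenting cells, was at 10.5, 20.6, 9.77 and 13.1 FPKM in CTR and at 12.3, 14.0 and 47.1 FPKM in TG papillomas, so only TG 3 was outside the CTR range, and its log2 difference went from 0.62 to 0.02 without it. Ifi30, the lysosomal thiol reductase, had a log2 difference of 0.51 and was highest in TG 1 at 36.6 FPKM. Cd83, which keeps class II at the cell surface, had a log2 difference of 0.31, or 0.05 without TG 3. H2-Oa, H2-Ob and March1 were under the minimum for testing. The H2-DM inhibitor subunits H2-Oa and H2-Ob reached 0.790 and 0.403 FPKM in TG 3, and March1, a ubiquitin ligase that removes class II from the surface, reached 0.981 FPKM there.

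Of 13 genes for class II transcription, 12 were tested, with a median log2 difference of 0.23, or 0.05 without TG 3. The subunits of the RFX complex, which binds the X box, had log2 differences of 0.28 for Rfx5, -0.01 for Rfxap and 0.04 for Rfxank. The NF-Y subunits, which bind the Y box, had log2 differences of 0.18 for Nfya, 0.06 for Nfyb and -0.03 for Nfyc, and Creb1 of 0.08. Without TG 3 the difference was -0.03 for Rfx5, 0.06 for Rfxap and 0.14 for Rfxank. It was then 0.02 for Nfya, -0.18 for Nfyb, 0.06 for Nfyc and -0.12 for Creb1. The groups overlapped for all 7 of these genes. Irf1 was at 8.75 FPKM in TG 3 against 2.17 to 4.84 FPKM elsewhere, Irf8 was at 2.03 FPKM there against 0.134 to 0.949 FPKM, and Irf4 was under the minimum.

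Of 12 listed genes of the interferon gamma response, 8 were tested, with a median log2 difference of 0.53, and 0.41 without TG 3. At an unadjusted p under 0.05 by limma, 4 were higher and 0 lower, against 4.86% and 1.96% of all tested genes. The 4 were the receptor and kinase genes Ifngr1, Ifngr2, Jak1 and Jak2. Ifng itself was listed at 0 in 6 papillomas and at 0.0495 FPKM in TG 2. Its receptor chain Ifngr1 had a log2 difference of 0.62 with groups that did not overlap (limma adjusted p = 0.574), and Ifngr2 one of 0.68 with overlap (limma adjusted p = 0.687). The kinase Jak1 was at 20.0, 14.1, 14.9 and 20.0 FPKM in CTR and at 21.2, 28.5 and 26.8 FPKM in TG papillomas. Socs1, an inhibitor of this signal, had a log2 difference of -0.02, and of 0.41 without TG 3. Gbp2, Cxcl10 and Nlrc5, the other tested genes of the list, had log2 differences of 0.50, 0.08 and 0.25, each with overlapping groups. Without TG 3 these were -0.03, -0.28 and 0.18.

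The 10 class I pathway genes, measured in the same papillomas, had a median log2 difference of 0.37 and 0.33 without TG 3. Of these, 2 were higher and 0 lower at an unadjusted p under 0.05 by limma, against 4.86% and 1.96% of all tested genes. B2m, the light chain of class I, was highest in TG 2 at 512.7 FPKM, and H2-K1, a heavy chain, was also highest there at 224.8 FPKM. TG 3 was within the CTR range for H2-D1, at 156.3 FPKM. TG 3 was the highest papilloma for 3 of the 10 class I genes, against 7 of the 7 class II members.

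H2-DMa, H2-DMb1, H2-Ab1, H2-Aa and H2-Eb1 lie in 1 stretch of chromosome 17 among class I processing genes. From H2-Oa to Btnl2 the files list 16 genes, of which 11 were tested. The 5 members had a median log2 difference of 0.87 and the 6 others 0.50. The 6 others include H2-DMb2, itself a class II loading gene that may share reads with the member H2-DMb1. H2-DMb2 had the highest log2 difference of the 6, 0.83, or 0.66 without TG 3, which raises their medians. Without TG 3 the medians of members and others were 0.51 and 0.41, so the 2 sets were then close. The groups did not overlap, with TG higher, in 3 of the 5 members and in 1 of the 6 others, the peptide transporter gene Tap2. Among all tested genes this share was 4.93%. These 3 members, H2-Aa, H2-Ab1 and H2-DMb1, were already counted above, and H2-Ab1 overlapped after upper-quartile scaling or quantile normalization. Tap2 was at 2.77, 2.49, 2.92 and 2.66 FPKM in CTR and at 4.17, 5.24 and 4.55 FPKM in TG papillomas, a log2 difference of 0.68 (limma adjusted p = 0.558; exact permutation p = 0.0286).

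**Figure D3:**
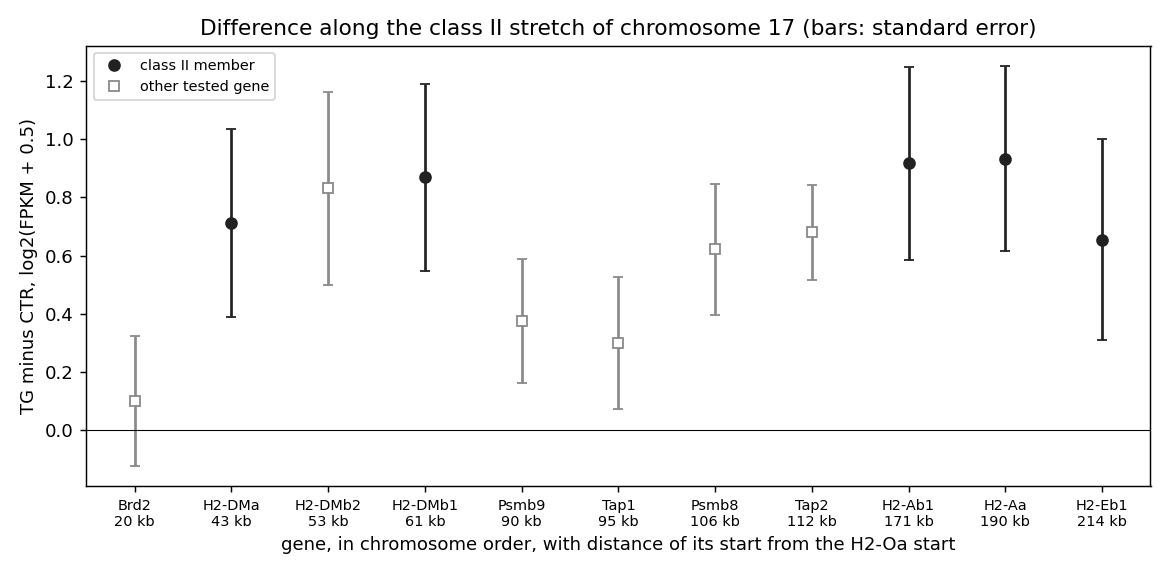
Log2 difference between TG and CTR papillomas for the genes of the class II stretch on chromosome 17, by distance in kb from the start of H2-Oa, with members and other genes marked apart. The 5 members have a median of 0.87 and the 6 other tested genes, which include H2-DMb2 of class II, one of 0.50. Without TG 3, which the plot includes, these medians are 0.51 and 0.41.

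Langerhans cell markers were read from 11 listed genes, of which 10 were tested. They had a median log2 difference of 0.49, and 0.32 without TG 3. At an unadjusted p under 0.05 by limma, 3 were higher (Cd1d1, Csf1r and Sirpa) and 1 lower (Id2), against 4.86% and 1.96% of all tested genes. Csf1r and Sirpa were highest in TG 3, where Cd207 was at 0.502 FPKM, and Cd1d1 was highest in TG 2. Csf1r, the receptor on which Langerhans cells depend, was at 1.48, 2.17, 2.05 and 3.51 FPKM in CTR and at 3.14, 3.43 and 9.09 FPKM in TG papillomas, with a log2 difference of 0.93 (limma adjusted p = 0.705), or 0.48 without TG 3. Id2, a factor needed for Langerhans cells and expressed in many other cells, went the other way: it was at 9.91, 25.7, 12.6 and 11.04 FPKM in CTR and at 6.13, 8.90 and 9.12 FPKM in TG papillomas, without overlap (log2 difference -0.76, limma adjusted p = 0.719, exact permutation p = 0.0571). The epithelial adhesion gene Epcam, which Langerhans cells share with keratinocytes, was between 25.5 and 49.6 FPKM with overlapping groups, and Cd24a, also shared with keratinocytes, had the highest level of the list. Most of the summed level of these markers thus came from genes that are not particular to Langerhans cells.

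The list of signals that keep Langerhans cells in the epidermis had a median log2 difference of 0.19 over 7 tested genes, and of -0.02 without TG 3. Il34, the keratinocyte ligand of Csf1r, was between 4.65 and 6.60 FPKM in all papillomas. Csf1, its other ligand, was at 1.19, 1.77, 1.71 and 2.56 FPKM in CTR and at 4.05, 5.07 and 10.4 FPKM in TG papillomas. The Csf1 groups were well separated, with a log2 difference of 1.53 (SE 0.32; limma adjusted p = 0.538; exact permutation p = 0.0286). Tgfb1 and the adhesion gene Cdh1 had log2 differences of 0.19 and -0.0032, or -0.02 and -0.21 without TG 3, and Ccl20, which draws Langerhans cell precursors, ranged from 0.0647 to 2.26 FPKM with overlapping groups.

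**Figure D4:**
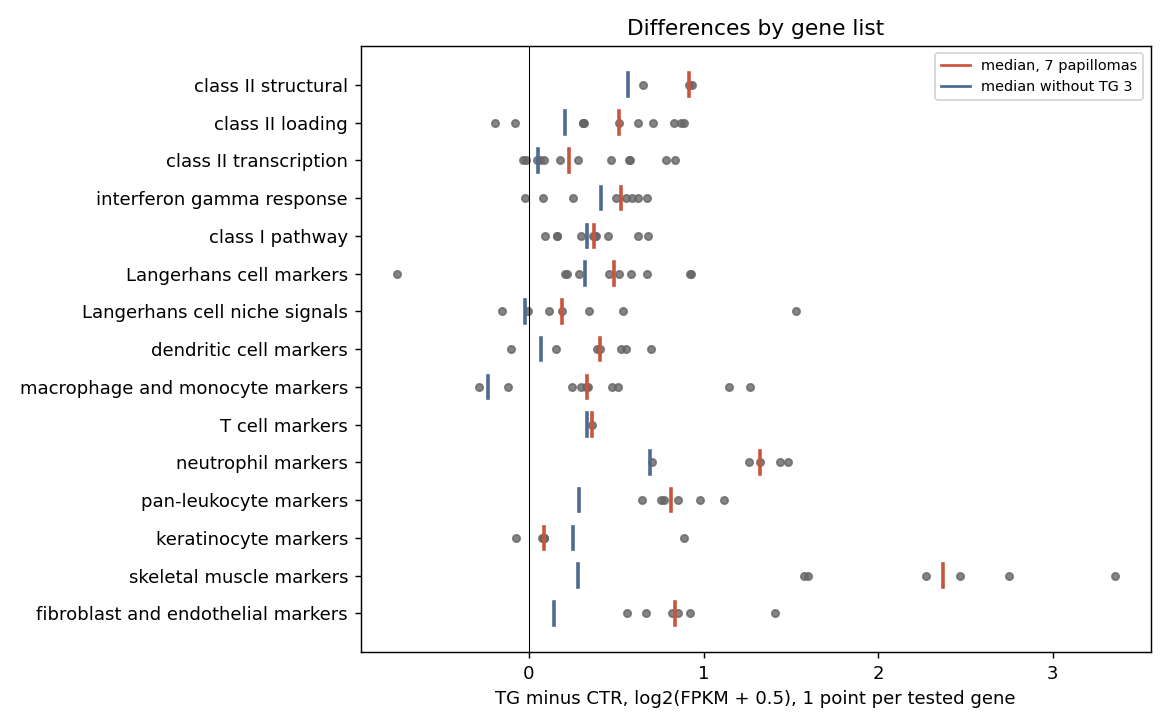
Median log2 difference between TG and CTR papillomas for each gene list, over all 7 papillomas and without TG 3. Structural class II genes have medians of 0.92 and 0.57, whereas macrophage and monocyte markers go from 0.33 to -0.24 when TG 3 is left out.

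Other cells that express class II were read from their own markers. Of 16 dendritic cell markers 7 were tested, with a median log2 difference of 0.40, and 0.07 without TG 3. Cd86, a costimulatory ligand, was at 0.507, 0.681, 0.389 and 1.01 FPKM in CTR and at 1.14, 1.22 and 1.66 FPKM in TG papillomas, with a limma adjusted p of 0.689. Cd86 was the 1 tested marker of this list higher at an unadjusted p under 0.05 by limma, against 4.86% of all tested genes. Cd80 went the other way, with overlapping groups and a log2 difference of -0.10, or -0.47 without TG 3. Fscn1, the gene of highest level in the list, had a log2 difference of 0.15, or 0.08 without TG 3. Itgax, the CD11c gene, was at 1.27, 1.87, 0.880 and 1.57 FPKM in CTR and at 1.11, 1.13 and 5.21 FPKM in TG papillomas, so that TG 1 and TG 2 lay inside the CTR range. Xcr1 and Clec9a, markers of type 1 dendritic cells, were at most 0.198 and 0.112 FPKM. For the 10 tested macrophage and monocyte markers, 0 were higher or lower at an unadjusted p under 0.05. Their sum was 88.6 to 190.7 FPKM in CTR and 149.6, 74.9 and 312.9 FPKM in TG papillomas. The largest part of it came from Ly6c2, at 48.0, 103.3, 139.3 and 82.8 FPKM in CTR and 103.7, 32.5 and 107.1 FPKM in TG papillomas. The Ly6c2 log2 difference was -0.29, or -0.58 without TG 3. Cd14 was at 41.9 FPKM in TG 3 against 2.19 to 5.39 FPKM elsewhere. Its log2 difference was 1.27, or 0.27 without TG 3. B cell markers summed to 0.340 to 0.505 FPKM in CTR and 0.498 to 0.725 FPKM in TG papillomas, with Pax5 listed at 0 in all, and of the T cell markers only Cd3g was tested, with a log2 difference of 0.36. The 5 tested neutrophil markers had a median log2 difference of 1.32, and 0.69 without TG 3. Of these, 3 were higher at an unadjusted p under 0.05 by limma, against 4.86% of all tested genes. Csf3r, the granulocyte growth factor receptor, was at 16.96 FPKM in TG 3 against 0.265 to 0.750 FPKM elsewhere, and its log2 difference went from 1.49 to 0.13 without it. The other neutrophil markers were not all like this, as 2 of the 5 were highest in TG 3. S100a8, an alarmin that keratinocytes also make, was at 306.6, 859.8, 585.4 and 754.9 FPKM in CTR and at 1846, 2257 and 751.7 FPKM in TG papillomas, so TG 3 lay inside the CTR range. Its log2 difference was 1.32, and 1.80 without TG 3. S100a9 had the same order of TG papillomas, and Cxcr2 was highest in TG 1. Their part in the class II values was not tested. By limma, 0 genes of any list had an adjusted p under 0.05.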

How the data were processed

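For each library the authors deposited FPKM values from Cufflinks 1.3.0, with an interval and a status. Their processing notes name Samtools 0.1.16, Bowtie 0.12.7 and TopHat 2.0.4 for the stranded single reads, on the mouse build GRCm38 (mm10). By the study's methods the gene models came from UCSC, and reads with a few matching places were kept, which can share reads among near-identical class II genes. Read numbers were implied from interval widths, and 64.7% to 66.4% of values under 50 implied reads were whole within 0.02, so depth is approximate. Entries of a symbol were summed (240 symbols), and 162 symbols with a failed estimate were left out.

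Genes whose mean reached 0.5 FPKM were tested on log2(FPKM + 0.5) with limma 3.58.1 (R 4.3.3), with a variance trend and Benjamini-Hochberg adjustment at 0.05. Single genes were compared by exact permutation over 35 splits of the labels, in scipy 1.17.1 and numpy 2.4.6 (Python 3.11.15), and pandas 2.3.3 and matplotlib 3.10.9 served for tables and plots. The fit was tested on simulated data. Libraries came from different mice. No count test was run, since many low values were not whole reads.

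Members and gene lists were chosen with earlier results of these data known. Named genes were the members, the class II lists, the genes of highest level and of largest difference in each other list, and the 5 genes most like each pattern. 1 gene of these lists is not reported here. Others, such as Krt10 and Irf8, were chosen after their values were seen. Spi1 and Adgre1 were matched by older symbols, and H2-Ea and Ly6g had no match. Alternatives covered the pseudocount, filter, scaling, weights, trend, block, depth, entry choice, status and each papilloma left out. Loci are 1-based on GRCm38.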

Additional observations from a re-analysis of the deposited data

How the results depend on the processing

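Over 19 alternatives the tested members gave 147 log2 differences, of which 0 reversed and 0 had an adjusted p under 0.05 by limma. The smallest adjusted p was 0.167, under sample quality weights, and 0.446 under the rest. H2-Aa ranged from 0.57 to 1.15, Cd74 from 0.47 to 1.13, H2-DMb1 from 0.35 to 1.17, H2-Eb1 from 0.26 to 0.90 and Cd207 from 0.27 to 1.00. Over all genes, adjusted calls were 0 in either direction, but 49 higher and 36 lower with sample quality weights, and 1 higher among papillomas of lower depth. With each papilloma left out in turn, calls ranged from 0 to 9 higher and from 0 to 8 lower, the upper ends without TG 3, the class II median from 0.51 to 1.07, and non-overlapping members from 4 to 6. The class II median was 0.49 with sample quality weights, and 3 members did not overlap after upper-quartile scaling or quantile normalization. Before adjustment, p was under 0.05 for 598 genes with TG higher and for 241 with TG lower, against 394 and 561 after quantile normalization, where H2-Aa was still at 0.94. With the replicate number as a block, the class II median was 0.94 and 0 genes were called. Deviations of papillomas with the same number from their group means correlated at -0.186, 0.043 and -0.146. The means come from few papillomas, so these values cannot decide whether the numbers pair the papillomas. Ciita fell below the minimum in several alternatives, and the few reads of Cd207, Ciita and Flt3 limit their values.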
